A study of Mus musculus and Homo sapiens with 176 samples.

Results

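The Elav and Celf genes encode RNA-binding proteins, and 9 of them were followed here: Elavl1, Elavl2, Elavl3 and Elavl4, and Celf1, Celf2, Celf4, Celf5 and Celf6. They were found by their gene symbols among the 24854 features of the deposited RNA tables, and each symbol matched 1 feature. The study profiled histone marks and RNA in sorted nuclei to compare neurons and glia of the cerebellum and the prefrontal cortex, and the chromatin samples were not analysed here. RNA was sequenced in 8 libraries of sorted nuclei, which all came from 1 C57BL/6 mouse, labelled M3, with no transgene or treatment named in the labels and an age given as 8 to 10 weeks. The 4 groups were cerebellar NeuN+ nuclei, cerebellar NeuN- nuclei, prefrontal NeuN+ nuclei and prefrontal NeuN- nuclei, with 2 libraries each. NeuN is the neuronal nuclear antigen, a protein encoded by Rbfox3, so that the NeuN+ gate is meant to hold neurons and the NeuN- gate glia, with weakly stained neurons able to fall into the second. Because 1 animal gave all libraries, p-values reflect how far libraries of a group lie apart, which may be technical variation and says nothing of other mice, and the values are those of RNA in nuclei, not of protein.

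Elav proteins, also called Hu proteins, bind U-rich and AU-rich stretches, mostly in the untranslated regions and introns of messages. Elavl1 (HuR) is made in nearly all cells, whereas Elavl2 (HuB), Elavl3 (HuC) and Elavl4 (HuD) are made mainly in neurons, where they stabilise messages, shape splicing and accompany neuronal differentiation. Celf proteins bind GU-rich stretches and act on alternative splicing in the nucleus and on decay and translation in the cytoplasm, with Celf1 and Celf2 made in many tissues and Celf3 to Celf6 made mostly in the nervous system.

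A contrast between the regions was that of Elavl2, with its highest level in prefrontal NeuN+ nuclei, and Elavl3, with its highest levels in cerebellar nuclei. Promoter windows of these genes are shown for that reason, together with that of Celf1, a member that was not called between the NeuN+ nuclei of the regions. Celf1 was called between the NeuN- nuclei, higher in cerebellum, and its NeuN+ difference passed under some other scalings, as given below. Windows ran from 250 bases before to 50 bases after an annotated start and came from RefSeq on build GRCm38.p6, in which 8 of the 9 members were matched by symbol. Windows are written 5′ to 3′ on the strand of the gene, which is the plus strand for Celf1 and the minus strand for the others. Capitals mark each match, on either strand, to any of 4 motifs. The CAAT-type box was searched by its core CCAAT. The promoter element known as the TATA box was searched by the letters TATAAA. The GC-rich Sp-type element, called the GC box, was searched by the letters GGGCGG. The E-box, bound by basic helix-loop-helix proteins, was searched by the letters CAGCTG. No motif of these 4 contains another, GC boxes overlap each other in the Celf1 window, and the motifs were chosen after the sequences had been seen. Elavl3 has 1 window, at chr9:22051974-22052273, and Celf1 has 1 window, at chr2:90940147-90940446. Elavl2 has 6 windows, of which window 1 at chr4:91399935-91400234, window 2 at chr4:91376447-91376746 and window 4 at chr4:91372020-91372319 are shown, and the other 3 overlap window 2 or window 4.
Elavl3 window: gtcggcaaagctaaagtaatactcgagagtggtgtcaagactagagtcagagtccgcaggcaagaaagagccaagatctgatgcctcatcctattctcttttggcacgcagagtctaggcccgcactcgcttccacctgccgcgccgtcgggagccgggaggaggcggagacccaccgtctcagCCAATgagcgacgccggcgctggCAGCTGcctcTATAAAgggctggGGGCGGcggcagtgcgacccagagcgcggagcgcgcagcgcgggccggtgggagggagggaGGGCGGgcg
Elavl2 window 1: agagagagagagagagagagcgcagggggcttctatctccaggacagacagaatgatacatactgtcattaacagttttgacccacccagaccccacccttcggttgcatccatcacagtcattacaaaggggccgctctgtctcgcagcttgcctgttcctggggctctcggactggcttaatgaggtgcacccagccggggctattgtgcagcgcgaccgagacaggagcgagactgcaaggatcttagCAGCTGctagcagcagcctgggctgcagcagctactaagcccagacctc
Elavl2 window 2: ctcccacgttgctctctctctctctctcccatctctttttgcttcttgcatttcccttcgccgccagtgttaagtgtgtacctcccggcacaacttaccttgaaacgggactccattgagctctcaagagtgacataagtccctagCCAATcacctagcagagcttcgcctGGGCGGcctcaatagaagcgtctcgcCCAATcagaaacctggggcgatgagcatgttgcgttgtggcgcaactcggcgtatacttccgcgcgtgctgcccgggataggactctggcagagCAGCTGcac
Elavl2 window 4: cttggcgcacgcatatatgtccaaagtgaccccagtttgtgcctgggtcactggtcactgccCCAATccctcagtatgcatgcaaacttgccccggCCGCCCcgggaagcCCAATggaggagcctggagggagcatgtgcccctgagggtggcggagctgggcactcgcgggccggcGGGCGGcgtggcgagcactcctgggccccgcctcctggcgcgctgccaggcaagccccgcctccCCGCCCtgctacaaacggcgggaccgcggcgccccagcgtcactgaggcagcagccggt
Celf1 window: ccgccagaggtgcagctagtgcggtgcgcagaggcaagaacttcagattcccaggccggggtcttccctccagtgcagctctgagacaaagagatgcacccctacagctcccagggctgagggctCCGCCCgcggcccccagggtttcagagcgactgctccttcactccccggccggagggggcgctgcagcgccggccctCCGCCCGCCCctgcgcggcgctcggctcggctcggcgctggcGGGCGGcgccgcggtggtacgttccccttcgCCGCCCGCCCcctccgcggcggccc

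The Elavl3 window held all 4 motifs, with the TATA box and the E-box close to each other before the start. A TATA box was in windows of 15.7% of all 27025 genes in the table and of 2 of the 8 matched members, Elavl3 and Celf2. A CAAT-type box was in windows of 41.1% of all genes and of 6 members, a GC box in windows of 38.2% and of 6 members, and an E-box in windows of 18.3% and of 5 members. GC content was 65.3% in the Elavl3 window, 57.0%, 56.0% and 70.3% in Elavl2 windows 1, 2 and 4, and 74.3% in the Celf1 window, against a median of 52.7% over all 32851 windows of the same length. The observed-to-expected ratio of CpG was 0.92 for Elavl3, 0.41, 0.78 and 0.68 for the 3 Elavl2 windows and 0.83 for Celf1, with a median of 0.38 over all windows. The 8 members have 25 windows, more per gene than the 32851 windows of 27025 genes in the table. By window the TATA box was in 2 of 25 member windows against 13.6% of all windows, the CAAT-type box in 12 of 25 against 37.4%, the GC box in 13 of 25 against 35.7% and the E-box in 8 of 25 against 16.3%. These matches describe the letters in the windows and are not measured binding sites.

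Levels are FPKM, fragment numbers divided by transcript length and library depth, so genes can be compared per length. Changes are log2 changes of scaled FPKM + 1, where scaling multiplies each library by a median-of-ratios factor, and a change was called at a limma adjusted p under 0.05 over the 14376 features that reached 1 FPKM in 2 or more libraries. Of the 9 members, 8 passed that filter and Celf5 did not. The FPKM of a library summed to between 289350 and 426851, with the highest sums in the prefrontal NeuN- libraries, whose scaling factors of 0.878 and 0.896 were below the 1.03 to 1.05 of the other 6. Spearman's correlation between replicate libraries ran from 0.972 to 0.977 and that between groups from 0.680 to 0.808, across features. The number of fragments behind a value is unknown, and the confidence limits in the tables are the authors'.

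The sorted populations were checked against fixed marker lists, as sums of scaled FPKM. All 10 astrocyte genes and all 10 oligodendrocyte genes were lower in NeuN+ than in NeuN- nuclei in both regions, and the oligodendrocyte sum was 221 to 226 against 1655 to 1682 in cerebellum and 92.5 to 98.7 against 2007 to 2011 in prefrontal cortex. The 11 granule cell genes were all higher in cerebellar NeuN+ nuclei, with sums of 1087 to 1090 against 314 to 319 in cerebellar NeuN- nuclei. General neuronal genes summed to 1757 to 1764 in cerebellar NeuN+ and 929 to 939 in cerebellar NeuN- nuclei, but to 1933 to 1962 in prefrontal NeuN+ and 2366 to 2497 in prefrontal NeuN- nuclei. The prefrontal NeuN- libraries thus carried neuronal messages, with 8 of the 15 genes higher and 5 lower in prefrontal NeuN+ nuclei. Rbfox3 itself stood at 123 and 119 FPKM in cerebellar NeuN+, 33.3 and 34.5 in cerebellar NeuN-, 16.2 and 15.7 in prefrontal NeuN+ and 14.2 and 12.3 in prefrontal NeuN- nuclei. Of 10 GABAergic genes, 0 were higher and 4 lower in cerebellar NeuN+ nuclei and 5 were higher and 2 lower in prefrontal NeuN+ nuclei. The GABAergic sum was nevertheless lower in prefrontal NeuN+ nuclei, at 933 to 1014 against 1262 to 1358 in prefrontal NeuN- nuclei. In cerebellum that sum was 310 to 312 in NeuN+ and 486.5 to 498 in NeuN- nuclei. Of 9 Purkinje cell genes 3 were higher and 1 lower in cerebellar NeuN+ nuclei. Of the 10 cortical projection neuron genes tested, 7 were higher and 0 lower in prefrontal NeuN+ nuclei, where the sum was 66.4 to 69.9 against 35.8 to 36.7 in prefrontal NeuN- nuclei. Oligodendrocyte precursor genes were lower in NeuN+ nuclei in 6 of 6 cases in both regions, Bergmann glia genes in 8 of 8 in cerebellum, microglial genes in 6 of 8 in cerebellum and 8 of 8 in prefrontal cortex, and vascular genes in 3 of 4 in cerebellum and 2 of 4 in prefrontal cortex. In bulk nuclei, fewer cells of a type and less RNA per cell cannot be told apart, and the part of cell makeup in the results below was not tested.

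**Figure D1:**
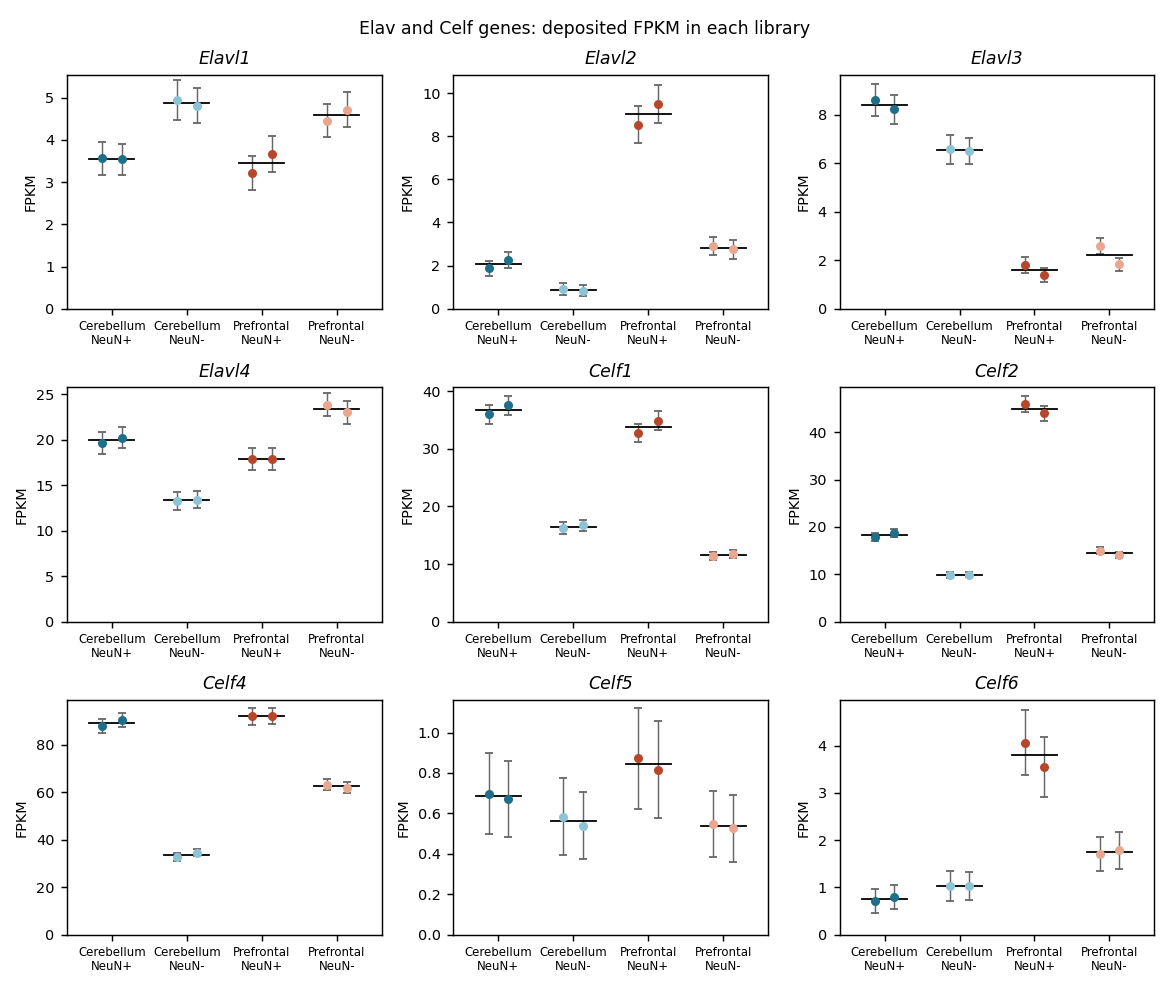
Deposited FPKM (vertical axes, from 0) of the 9 Elav and Celf genes in each of the 8 libraries, by group. Points are libraries with the authors' confidence limits and lines are group means; Elavl2 stands highest in prefrontal NeuN+ nuclei (8.54 and 9.48 FPKM) and Elavl3 in cerebellar NeuN+ nuclei (8.58 and 8.22 FPKM).

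Elavl2 and Elavl3 were placed in opposite order in the regions. Elavl2 stood at 1.88 and 2.25 FPKM in cerebellar NeuN+ nuclei, 0.924 and 0.848 in cerebellar NeuN- nuclei, 8.54 and 9.48 in prefrontal NeuN+ nuclei and 2.90 and 2.76 in prefrontal NeuN- nuclei. The prefrontal NeuN+ libraries were the highest by far, and no groups overlapped. In NeuN+ nuclei Elavl2 was lower in cerebellum than in prefrontal cortex, by a log2 change of -1.73 ± 0.09 (SE, n = 2 libraries each; adjusted p = 4.23e-06), and in NeuN- nuclei by -0.87 ± 0.09 (adjusted p = 1.06e-04). It was higher in NeuN+ than in NeuN- nuclei in both regions, by 0.71 ± 0.09 in cerebellum (adjusted p = 3.71e-04) and by 1.57 ± 0.09 in prefrontal cortex (adjusted p = 9e-06). Without the added 1, its cerebellar NeuN+ level was 22.7% of its prefrontal NeuN+ level, while that of Celf6 was 19.6%. On the same scale the Elavl2 level in cerebellar NeuN+ nuclei was 233% of that in cerebellar NeuN- nuclei. In prefrontal NeuN+ nuclei it was 376% of that in prefrontal NeuN- nuclei. With a pseudocount of 0.1 the cerebellar gate change was 1.13 and the regional change in NeuN- nuclei -1.36. The gate change was smaller in cerebellum than in prefrontal cortex by 0.86 ± 0.12 (adjusted p = 9.15e-04), a difference that was -0.56 after quantile normalization. Elavl2 spans chr4:90917457-91066675 on mm9, and Mir6402 lies within it and was listed at 0 in all libraries.

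Elavl3 stood at 8.58 and 8.22 FPKM in cerebellar NeuN+ nuclei, 6.57 and 6.49 in cerebellar NeuN- nuclei, 1.80 and 1.41 in prefrontal NeuN+ nuclei and 2.57 and 1.82 in prefrontal NeuN- nuclei. The 4 cerebellar libraries were above the 4 prefrontal ones, whose gates overlapped on the scaled values. Elavl3 was higher in cerebellum than in prefrontal cortex by a log2 change of 1.86 ± 0.12 in NeuN+ nuclei (adjusted p = 1.32e-05), a 3.64-fold change of scaled FPKM + 1, and by 1.41 ± 0.12 in NeuN- nuclei (adjusted p = 4.84e-05), 2.65-fold. Between the gates it was not called. NeuN+ minus NeuN- was 0.32 ± 0.12 in cerebellum (adjusted p = 0.0504), with a 95% interval of 0.03 to 0.62, and -0.13 ± 0.12 in prefrontal cortex (adjusted p = 0.355), with an interval of -0.43 to 0.16. The cerebellar value lay at the threshold. It passed with a replicate block (adjusted p = 0.025), quantile normalization (0.013), a common sum (0.043), no variance trend (0.047) and at least 5 FPKM in 2 libraries (0.049). It did not pass with a pseudocount of 0.1 (adjusted p = 0.11) or 0.5 (0.075), with no filter (0.074) or with no scaling (0.06). With 1 cerebellar library left out it ran from 0.30 to 0.36, and with 1 prefrontal library left out from 0.32 to 0.33. The prefrontal value was 0.02 without prefrontal NeuN- replicate 1. The difference of the gate changes, cerebellum minus prefrontal cortex, was 0.46 ± 0.17 (adjusted p = 0.0511), and with a replicate block the adjusted p was 0.026. Without prefrontal NeuN+ replicate 1 the difference was 0.57 (adjusted p = 0.035), and without prefrontal NeuN- replicate 2 it was 0.61 (adjusted p = 0.015). Elavl3 spans chr9:21819449-21856467 on mm9.

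Elavl4 was the most abundant Elav gene in every group. Its levels were 19.7 and 20.2 FPKM in cerebellar NeuN+ nuclei, 13.3 and 13.4 in cerebellar NeuN- nuclei, 17.9 and 17.9 in prefrontal NeuN+ nuclei and 23.9 and 23.0 in prefrontal NeuN- nuclei. The cerebellar NeuN- libraries were the lowest. In cerebellum Elavl4 was higher in NeuN+ than in NeuN- nuclei by a log2 change of 0.55 ± 0.04 (adjusted p = 3.37e-05), a 1.46-fold change. In prefrontal cortex it was called lower in NeuN+ nuclei, by -0.14 ± 0.04 (adjusted p = 0.0188), but the change was 0.06 when libraries were rescaled to a common sum, -0.08 (adjusted p = 0.15) after quantile normalization and -0.37 with no scaling. That call was lost without prefrontal NeuN+ replicate 1 (adjusted p = 0.069), prefrontal NeuN+ replicate 2 (0.073) or prefrontal NeuN- replicate 1 (0.068). The general neuronal list gave no single direction there: its sum was higher in the prefrontal NeuN- libraries, while 8 of its 15 genes were called higher and 5 lower in prefrontal NeuN+ nuclei, with a median change of 0.46. Its part in the Elavl4 value was not tested. The gate changes differed by 0.69 ± 0.06, cerebellum minus prefrontal cortex (adjusted p = 8.63e-05). Between the regions, Elavl4 was higher in cerebellar than in prefrontal NeuN+ nuclei by 0.14 ± 0.04 (adjusted p = 0.0197) and lower in cerebellar than in prefrontal NeuN- nuclei by a log2 change of -0.55 ± 0.04 (adjusted p = 2.45e-05). The NeuN- change was -0.26 with a common sum, and the NeuN+ change 0.28 after quantile normalization and 0.22 with a common sum. The NeuN+ call was lost without cerebellar NeuN+ replicate 2 (adjusted p = 0.072), prefrontal NeuN+ replicate 1 (0.075) or prefrontal NeuN+ replicate 2 (0.081). Elavl4 spans chr4:109876342-110024516 on mm9.

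Elavl1, the family member made in nearly all cell types, varied least between the groups. It stood at 3.56 and 3.54 FPKM in cerebellar NeuN+ nuclei, 4.94 and 4.81 in cerebellar NeuN- nuclei, 3.21 and 3.67 in prefrontal NeuN+ nuclei and 4.45 and 4.71 in prefrontal NeuN- nuclei. The NeuN- libraries were above the NeuN+ ones in each region. In cerebellum it was lower in NeuN+ nuclei by a log2 change of -0.37 ± 0.08 (adjusted p = 0.00444), and this was -0.17 with adjusted p = 0.077 after quantile normalization. In prefrontal cortex the change was -0.14 ± 0.08 and was not called (adjusted p = 0.149), with an interval of -0.32 to 0.05. On the deposited FPKM with no scaling that change was -0.33 and passed (adjusted p = 0.0065), and with a common sum it was 0.03. In NeuN+ nuclei the regions differed by 0.03 ± 0.08, cerebellum minus prefrontal cortex (adjusted p = 0.779), with an interval of -0.16 to 0.21, and by -0.05 without prefrontal NeuN+ replicate 1. In NeuN- nuclei Elavl1 was called higher in cerebellum by 0.26 ± 0.08 (adjusted p = 0.0186). That call was lost without cerebellar NeuN- replicate 1 (adjusted p = 0.082), without cerebellar NeuN- replicate 2 (adjusted p = 0.05) and without prefrontal NeuN- replicate 1 (adjusted p = 0.085), and it was 0.08 (adjusted p = 0.38) with no scaling and 0.51 with a common sum. The gate changes differed by -0.23 ± 0.11, which was not called (adjusted p = 0.0978), but passed at -0.41 with a common sum (adjusted p = 0.015) and was -0.04 with no scaling. Elavl1 spans chr8:4284782-4325100 on mm9.

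The regions differed in which Elav genes made up the family's summed level. The 4 Elav genes summed to 34.0 ± 0.4 FPKM in cerebellar NeuN+, 25.7 ± 0.1 in cerebellar NeuN-, 32.0 ± 0.7 in prefrontal NeuN+ and 33.1 ± 1.0 in prefrontal NeuN- nuclei (SD, n = 2). Of the sum of the neuronal members Elavl2, Elavl3 and Elavl4, Elavl2 made up 6.77% ± 0.78 in cerebellar NeuN+ nuclei, 4.26% ± 0.26 in cerebellar NeuN-, 31.6% ± 1.9 in prefrontal NeuN+ and 9.93% ± 0.07 in prefrontal NeuN- nuclei. The Elavl3 share was 27.6% ± 1.2 in cerebellar NeuN+, 31.4% ± 0.2 in cerebellar NeuN-, 5.63% ± 1.04 in prefrontal NeuN+ and 7.68% ± 1.52 in prefrontal NeuN- nuclei. In NeuN+ nuclei the minor neuronal member was thus Elavl2 in cerebellum and Elavl3 in prefrontal cortex, beside an Elavl4 share of 65.6% ± 0.4 in cerebellum and 62.8% ± 0.9 in prefrontal cortex. In prefrontal NeuN- nuclei Elavl4 made up 82.4% ± 1.5, against 64.3% ± 0.5 in cerebellar NeuN- nuclei. Shares within a library do not depend on the scaling of libraries.

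**Figure D2:**
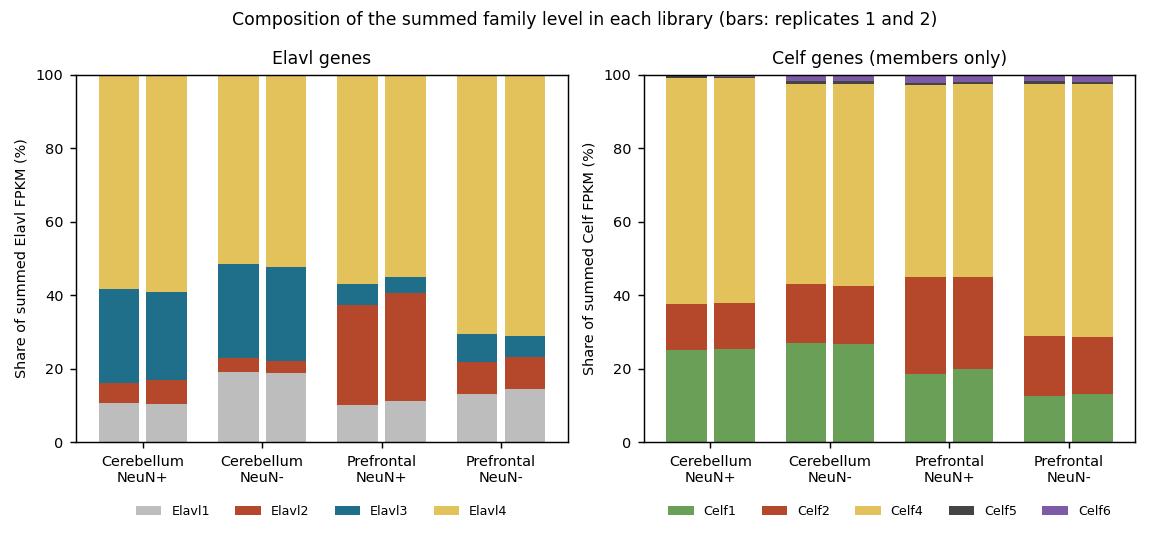
Share of the summed FPKM (vertical axes, %) of the 4 Elav genes (left) and the 5 Celf members (right) in each library, with replicates 1 and 2 side by side. Elavl4 and Celf4 hold the largest shares in every library, and the Elavl2 and Elavl3 shares change places between the cerebellar and the prefrontal NeuN+ libraries.

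Celf1, which binds GU-rich elements and takes part in splicing and in message decay, stood at 36.0 and 37.6 FPKM in cerebellar NeuN+ nuclei, 16.3 and 16.7 in cerebellar NeuN- nuclei, 32.8 and 34.9 in prefrontal NeuN+ nuclei and 11.4 and 11.7 in prefrontal NeuN- nuclei. All NeuN+ libraries were above all NeuN- libraries. The gate change was 1.11 ± 0.05 on the log2 scale in cerebellum (adjusted p = 3.98e-06), a 2.16-fold change, and 1.69 ± 0.05 in prefrontal cortex (adjusted p = 7.67e-07), 3.24-fold. The cerebellar change was smaller than the prefrontal one by 0.58 ± 0.07 (adjusted p = 4.81e-04), a difference that was -0.36 with no scaling. In NeuN+ nuclei the regions differed by 0.11 ± 0.05, cerebellum minus prefrontal cortex, which was not called (adjusted p = 0.0992; interval -0.02 to 0.23). That difference passed after quantile normalization (0.23, adjusted p = 0.004) and with a common sum (0.19, adjusted p = 0.016). In NeuN- nuclei Celf1 was higher in cerebellum by 0.69 ± 0.05 (adjusted p = 2.4e-05). Celf1 spans chr2:90780554-90859654 on mm9.

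Celf2, a splicing regulator, had the largest gate change of the members in prefrontal cortex on the scale of FPKM + 1, while without the added 1 the prefrontal NeuN+ level was 364.5% of the NeuN- level for Celf2 and 376% for Elavl2. Its levels were 17.9 and 18.7 FPKM in cerebellar NeuN+ nuclei, 9.83 and 9.93 in cerebellar NeuN- nuclei, 45.9 and 43.9 in prefrontal NeuN+ nuclei and 15.0 and 14.1 in prefrontal NeuN- nuclei. The prefrontal NeuN+ libraries stood far above all others, and no groups overlapped. Celf2 was higher in NeuN+ than in NeuN- nuclei by a log2 change of 0.83 ± 0.05 in cerebellum (adjusted p = 1.03e-05) and 1.79 ± 0.05 in prefrontal cortex (adjusted p = 5.17e-07). The cerebellar change was smaller by 0.96 ± 0.07 (adjusted p = 4.29e-05). Across regions it was lower in cerebellar than in prefrontal NeuN+ nuclei by a log2 change of -1.27 ± 0.05 (adjusted p = 1.25e-06), and lower in cerebellar NeuN- nuclei by -0.30 ± 0.05 (adjusted p = 0.00105). The NeuN- value was -0.02 (adjusted p = 0.69) with a common sum and -0.51 with no scaling. Celf2 spans chr2:6460744-7317825 on mm9 and is the longest member, at 857.1 kb. It overlaps the feature 5031426D15Rik, which stood at 2.48 and 1.87 FPKM in cerebellar NeuN+, 2.42 and 2.14 in cerebellar NeuN-, 30.3 and 29.6 in prefrontal NeuN+ and 3.77 and 3.38 in prefrontal NeuN- nuclei. The overlapping feature was thus also highest in prefrontal NeuN+ nuclei. The sources used here do not give the use of strand in the quantification, so fragments of Celf2 and of this feature cannot be told apart with certainty.

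Celf4, a member made mainly in the nervous system, was the most abundant of the 9 genes in every group. It stood at 88.1 and 90.4 FPKM in cerebellar NeuN+ nuclei, 32.9 and 34.5 in cerebellar NeuN- nuclei, 92.0 and 92.2 in prefrontal NeuN+ nuclei and 63.1 and 62.0 in prefrontal NeuN- nuclei. The NeuN+ libraries of the regions lay close to each other, and the prefrontal NeuN- libraries lay well above the cerebellar NeuN- ones. The gate change was 1.38 ± 0.04 on the log2 scale in cerebellum (adjusted p = 7.26e-07), a 2.61-fold change, and 0.78 ± 0.04 in prefrontal cortex (adjusted p = 5.81e-06), 1.72-fold. The cerebellar change was larger by 0.60 ± 0.06 (adjusted p = 1.3e-04), and by 0.38 both after quantile normalization and with a common sum. Of the 15 general neuronal genes, 14 were higher and 1 lower in cerebellar NeuN+ nuclei (median 0.81), against 8 and 5 in prefrontal NeuN+ nuclei (median 0.46), and their part was not tested. In NeuN+ nuclei the regions differed by -0.06 ± 0.04, cerebellum minus prefrontal cortex, which was not called (adjusted p = 0.241; interval -0.15 to 0.04). The sign turned to 0.02 after quantile normalization and 0.03 with a common sum. In NeuN- nuclei Celf4 was lower in cerebellum by a log2 change of -0.65 ± 0.04 (adjusted p = 9.19e-06), which was -0.36 after quantile normalization and -0.35 with a common sum. It spans chr18:25636121-25912484 on mm9.

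Celf6, another member made mostly in the nervous system, was low in cerebellum. It stood at 0.705 and 0.795 FPKM in cerebellar NeuN+ nuclei, 1.03 and 1.03 in cerebellar NeuN- nuclei, 4.06 and 3.54 in prefrontal NeuN+ nuclei and 1.71 and 1.78 in prefrontal NeuN- nuclei. The prefrontal NeuN+ libraries were the highest and the cerebellar NeuN+ libraries the lowest. Celf6 was higher in prefrontal NeuN+ than in prefrontal NeuN- nuclei by a log2 change of 0.97 ± 0.08 (adjusted p = 5.03e-05), which without the added 1 was 257% of the NeuN- level. In cerebellum it was called lower in NeuN+ nuclei, by -0.22 ± 0.08 (adjusted p = 0.0433), a call near the threshold on levels near 1 FPKM. The call was lost with a replicate block (adjusted p = 0.067), without either cerebellar NeuN+ library (replicate 1, adjusted p = 0.18; replicate 2, 0.081), without either cerebellar NeuN- library (replicate 1, 0.13; replicate 2, 0.12) and without either prefrontal NeuN- library (0.054 each), and quantile normalization turned the sign to 0.18. The gate changes differed by -1.18 ± 0.11, cerebellum minus prefrontal cortex (adjusted p = 1.31e-04). In NeuN+ nuclei Celf6 was lower in cerebellum than in prefrontal cortex by a log2 change of -1.48 ± 0.08 (adjusted p = 4.99e-06), and in NeuN- nuclei by -0.30 ± 0.08 (adjusted p = 0.0106). The NeuN- call was lost with a common sum (-0.13, adjusted p = 0.18). With a pseudocount of 0.1 the cerebellar gate change was -0.41 and the NeuN- regional change -0.50. Celf6 spans chr9:59426144-59455099 on mm9.

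Celf5, the member with the lowest level, stayed under 1 FPKM in every library and was left out by the filter. It stood at 0.698 and 0.670 FPKM in cerebellar NeuN+ nuclei, 0.584 and 0.540 in cerebellar NeuN-, 0.872 and 0.817 in prefrontal NeuN+ and 0.547 and 0.526 in prefrontal NeuN- nuclei. The NeuN+ libraries were above the NeuN- libraries in each region, but the authors' confidence limits overlapped between the gates. They were 0.578 to 1.05 FPKM in prefrontal NeuN+ replicate 2 and 0.386 to 0.709 in prefrontal NeuN- replicate 1. At levels under 1 FPKM the added 1 shrinks both the changes and their SE. In a fit with no filter, over 19044 features, NeuN+ minus NeuN- was 0.35 ± 0.04 in prefrontal cortex (adjusted p = 6.7e-04) and 0.11 ± 0.04 in cerebellum (adjusted p = 0.056). In that fit NeuN+ nuclei of cerebellum were lower than those of prefrontal cortex by -0.14 (adjusted p = 0.024), NeuN- nuclei differed by 0.10 (adjusted p = 0.069) and the gate changes differed by -0.24 (adjusted p = 0.013). Celf5 spans chr10:80921973-80945454 on mm9. The remaining family gene Celf3, which is no member, averaged 23.5 FPKM in cerebellar NeuN+, 10.5 in cerebellar NeuN-, 33.2 in prefrontal NeuN+ and 5.15 in prefrontal NeuN- nuclei. It was named outside the rule for named genes, after its values were seen.

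The 5 Celf members summed to 146 ± 3 FPKM in cerebellar NeuN+ and 61.7 ± 1.6 in cerebellar NeuN- nuclei, and to 175 ± 0.2 in prefrontal NeuN+ and 91.0 ± 1.2 in prefrontal NeuN- nuclei (SD, n = 2). Celf3, with the levels given above, is left out of this sum, so the shares are not of the whole family. Celf4 held 61.3% ± 0.3 of that sum in cerebellar NeuN+, 54.7% ± 0.5 in cerebellar NeuN-, 52.5% ± 0.1 in prefrontal NeuN+ and 68.8% ± 0.02 in prefrontal NeuN- nuclei. Celf2 held 12.5% ± 0.1 in cerebellar NeuN+ and 25.6% ± 0.8 in prefrontal NeuN+ nuclei, and Celf1 held 25.2% ± 0.2 in cerebellar NeuN+ and 19.3% ± 0.9 in prefrontal NeuN+ nuclei. In order of FPKM, cerebellar NeuN+ nuclei had Celf4, Celf1, Elavl4, Celf2, Elavl3, Elavl1, Elavl2, Celf6 and Celf5. Prefrontal NeuN+ nuclei had Celf4, Celf2, Celf1, Elavl4, Elavl2, Celf6, Elavl1, Elavl3 and Celf5, with the libraries of Celf6 and Elavl1 overlapping. The authors' confidence limits also overlapped between Elavl4 and Celf2 and between Celf6 and Celf5 in cerebellar NeuN+ nuclei, and between Elavl3 and Celf5 in prefrontal NeuN+ nuclei.

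**Figure D3:**
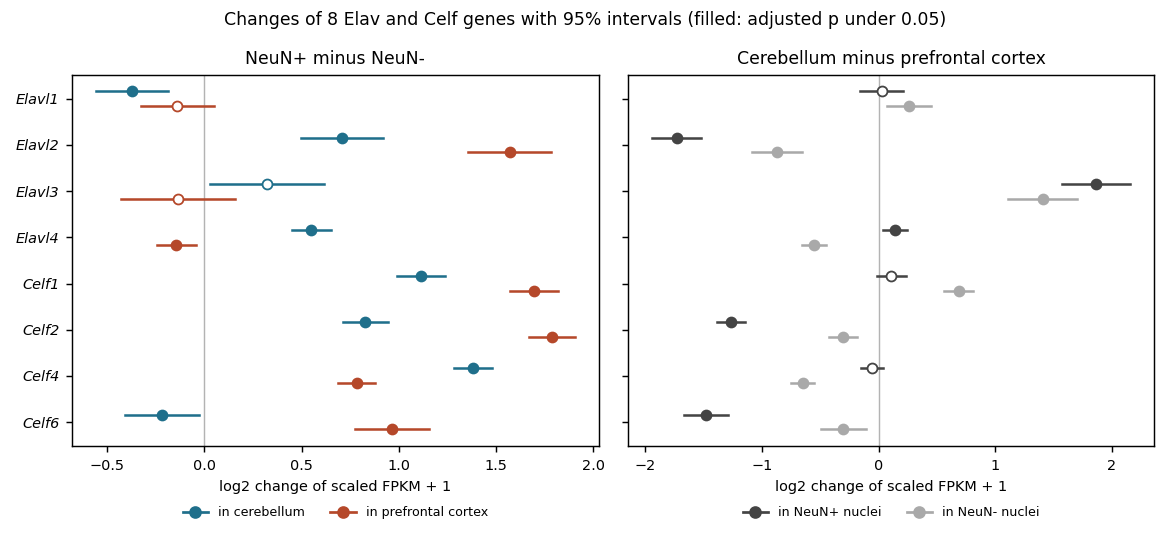
Log2 changes of scaled FPKM + 1 (horizontal axes) with 95% intervals for the 8 tested Elav and Celf genes, for NeuN+ minus NeuN- in each region (left) and cerebellum minus prefrontal cortex in each gate (right). Filled points passed an adjusted p under 0.05. On this scale Elavl3 (1.86) and Elavl2 (-1.73) lie at opposite ends of the regional change in NeuN+ nuclei. Without the added 1, the cerebellar level was 19.6% of the prefrontal one for Celf6 and 22.7% for Elavl2.

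Across the 8 tested members, NeuN+ nuclei were called higher more often than lower in both regions. In cerebellum 5 members were higher in NeuN+ nuclei (Elavl2, Elavl4, Celf1, Celf2 and Celf4), Elavl1 and Celf6 were lower, and Elavl3 was not called. Of all tested features, 71.7% were called in that comparison, 32.4% higher and 39.2% lower, and the member median was 0.63 on the log2 scale against -0.04 over all features. In prefrontal cortex 5 members were higher (Elavl2, Celf1, Celf2, Celf4 and Celf6), Elavl4 was lower and 2 were not called, with a background of 72.6% called, 35% higher and 37.6% lower. The member median there was 0.88, against -0.01 over all features. Being called at all was thus the usual outcome in these tables, and the members' shares of 7 of 8 and 6 of 8 are near it.

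Between the regions the members were split. In NeuN+ nuclei 2 were higher in cerebellum (Elavl3 and Elavl4), 3 were lower (Elavl2, Celf2 and Celf6) and 3 were not called, with a background of 77.2% called, 36.5% higher and 40.7% lower. In NeuN- nuclei 3 were higher in cerebellum (Elavl1, Elavl3 and Celf1) and 5 were lower, with a background of 79.5% called, 40.5% higher and 39% lower. The gate change was larger in cerebellum for 2 members (Elavl4 and Celf4) and smaller for 4 (Elavl2, Celf1, Celf2 and Celf6), with a background of 70.1% called, 33.1% higher and 37% lower. The 5 comparisons reuse the same libraries and are not independent of each other. The prefrontal gate, NeuN- and gate-difference splits moved with scaling: of the features called, 48.2% were higher in prefrontal NeuN+ nuclei as reported, against 36% with no scaling and 59.9% with a common sum. The same shares were 51%, 42.6% and 62.1% for cerebellum against prefrontal cortex in NeuN- nuclei, and 47.2%, 57.6% and 37.7% for the gate difference. The median of all features in the prefrontal gate comparison was -0.19 with no scaling and 0.14 with a common sum.

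Other RNA-binding genes of related roles are given by lists, as background to the members. Of 19 listed splicing regulators, 15 were tested, of which 8 were higher and 6 lower in NeuN+ nuclei in cerebellum, and likewise 8 and 6 in prefrontal cortex. Over all features 32.4% were higher and 39.2% lower in cerebellar NeuN+ nuclei, and 35% and 37.6% in prefrontal NeuN+ nuclei. The gate counts of every list below are to be read beside these shares. Qk, the quaking gene, which acts on splicing in glia and myelin, was lower in NeuN+ nuclei in both regions, with means of 8.47 against 42.5 scaled FPKM in cerebellum and 7.68 against 51.6 in prefrontal cortex (log2 changes of -2.20 and -2.60). Srrm3, which acts on the inclusion of microexons, averaged 41.8 in cerebellar NeuN+ and 8.75 in cerebellar NeuN- nuclei, a log2 change of 2.14. In prefrontal cortex Srrm3 averaged 10.4 in NeuN+ and 1.57 in NeuN- nuclei. In NeuN- nuclei it was also higher in cerebellum than in prefrontal cortex, by 1.92. Khdrbs2, whose product regulates splicing of neurexins in mouse, averaged 0.0236 scaled FPKM in cerebellar NeuN+, 1.38 in cerebellar NeuN-, 14.0 in prefrontal NeuN+ and 1.35 in prefrontal NeuN- nuclei. It had the largest prefrontal gate increase of the list (2.67) and the most negative gate difference (-3.88), and in NeuN+ nuclei it was lower in cerebellum than in prefrontal cortex by -3.87, as Elavl2, Celf2 and Celf6 also were. Khdrbs3, a relative of Khdrbs2, was lower in cerebellar than in prefrontal NeuN- nuclei, with 1.37 against 5.80 scaled FPKM and a log2 change of -1.52. Rbfox3, which encodes NeuN and was thus used for sorting, averaged 126 in cerebellar NeuN+ and 16.7 scaled FPKM in prefrontal NeuN+ nuclei, a log2 change of 2.84, and its gate change was larger in cerebellum by 1.34.

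Of 10 tested AU-rich element binders outside the Elav family, 0 were higher, 7 were lower and 3 did not pass in cerebellar NeuN+ nuclei, with a median of -0.49. Over all features in that comparison 32.4% were higher and 39.2% lower, with a median of -0.04. In prefrontal cortex 4 of the 10 were higher and 5 lower. Zfp36l1 and Zfp36l2 encode proteins that promote decay of messages with AU-rich elements. Zfp36l2 averaged 0.0175 scaled FPKM in cerebellar NeuN+ and 4.15 in cerebellar NeuN- nuclei (log2 change -2.34). Its prefrontal means were 1.35 in NeuN+ and 9.03 in NeuN- nuclei. In NeuN+ and NeuN- nuclei it was lower in cerebellum than in prefrontal cortex by -1.21 and -0.96. The NeuN+ change is between low means, of 0.0175 and 1.35 scaled FPKM. Zfp36l1 averaged 0.176 in prefrontal NeuN+ and 7.47 in prefrontal NeuN- nuclei (log2 change -2.86), and its gate change was less negative in cerebellum, by 0.76. In NeuN+ nuclei it was higher in cerebellum than in prefrontal cortex, by 0.72, with both means under 1 scaled FPKM (0.936 against 0.176). Ybx1, a message-packaging protein gene, averaged 39.7 scaled FPKM in prefrontal NeuN+ and 22.1 in prefrontal NeuN- nuclei (0.82). Tia1, a stress granule protein gene, had the most negative gate difference of the list (-1.15), with means of 32.2 in cerebellar NeuN+, 46.7 in cerebellar NeuN-, 66.2 in prefrontal NeuN+ and 42.5 in prefrontal NeuN- nuclei. Pcbp2, a poly(C)-binding protein gene, was higher in cerebellar than in prefrontal NeuN- nuclei by 0.54.

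Among 14 tested genes for translation control and message transport, 5 were higher and 4 lower in cerebellar NeuN+ nuclei and 5 higher and 3 lower in prefrontal NeuN+ nuclei. Cpeb1, a factor of cytoplasmic polyadenylation, moved in opposite directions with the gate. It averaged 9.30 scaled FPKM in cerebellar NeuN+, 21.3 in cerebellar NeuN-, 55.7 in prefrontal NeuN+ and 22.6 in prefrontal NeuN- nuclei, with gate changes of -1.12 in cerebellum and 1.26 in prefrontal cortex and a tested difference of -2.38 (adjusted p = 4.2e-06). In NeuN+ nuclei it was lower in cerebellum by -2.46. Syncrip, which encodes an RNA transport granule protein, showed the opposite gate difference (1.43), with a prefrontal gate change of -0.54 and, in NeuN- nuclei, a regional change of -0.997.

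Of 15 genes for deadenylation and decay, the processes that Celf1 can promote and Hu proteins can oppose, 7 were higher and 4 lower in cerebellar NeuN+ nuclei and 6 higher and 4 lower in prefrontal NeuN+ nuclei. Pan2, the catalytic subunit gene of the Pan2-Pan3 deadenylase, averaged 40.1 scaled FPKM in cerebellar NeuN+, 15.3 in cerebellar NeuN-, 12 in prefrontal NeuN+ and 12.6 in prefrontal NeuN- nuclei. It rose by 1.33 with the cerebellar gate and was higher in cerebellar than in prefrontal NeuN+ nuclei by 1.66. Pan3, the partner subunit gene, had the largest increase of the list in prefrontal NeuN+ nuclei, by 0.60 (6.87 against 4.2 scaled FPKM). In cerebellum the Pan3 mean was also higher in NeuN+ nuclei, at 8.87 against 4.64. Dcp1a, a decapping factor gene, was lower in NeuN+ nuclei by -1.31 in cerebellum and -0.69 in prefrontal cortex. Cnot8, a deadenylase subunit gene, was lower in cerebellar than in prefrontal NeuN+ nuclei by -1.33, and Cnot6, another, had a gate difference of -0.81. Pabpn1 and Pabpc1, genes of the nuclear and the cytoplasmic poly(A)-binding protein, differed in opposite directions between cerebellar and prefrontal NeuN- nuclei (1.18 and -0.73), and the gate change of Pabpc1 was larger in cerebellum by 1.70.

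Of 14 genes whose messages are known targets of Hu proteins, 7 were higher and 6 lower in cerebellar NeuN+ nuclei, and 5 were higher and 6 lower in prefrontal NeuN+ nuclei. Gap43, a growth-associated protein gene and known Elavl4 target that also stands in the general neuronal marker list, averaged 175 scaled FPKM in cerebellar NeuN+, 102 in cerebellar NeuN-, 221 in prefrontal NeuN+ and 322 in prefrontal NeuN- nuclei. Its gate difference was 1.31, and in NeuN- nuclei it was lower in cerebellum by -1.65. Gap43 was named for the largest positive gate difference of the list. In that comparison 7 of the 14 genes were called higher and 6 lower, against 33.1% and 37% of all features. Ache, the acetylcholinesterase gene, was higher in NeuN+ than in NeuN- nuclei of cerebellum by 1.08 (11.3 against 4.81 scaled FPKM). Its prefrontal means lay in the same direction, at 6.57 against 2.67. Fos, an immediate early gene, was higher in prefrontal NeuN+ than NeuN- nuclei by 1.45 (6.97 against 1.91 scaled FPKM). Its cerebellar means lay in the same direction, at 11.1 against 4.91. In NeuN- nuclei Fos was higher in cerebellum than in prefrontal cortex by 1.02. Vegfa, a growth factor gene and a target of Elavl1, averaged 3.84 in cerebellar NeuN+ and 13.5 in cerebellar NeuN- nuclei (-1.58), and 1.18 in prefrontal NeuN+ and 7.69 in prefrontal NeuN- nuclei (-1.99). Mapt, the tau gene, was higher in cerebellar than in prefrontal NeuN+ nuclei by 1.21, with 51.1 against 21.5 scaled FPKM. Bdnf, a neurotrophin gene, was lower there by -0.38, and Bcl2, a survival gene, had a gate difference of -1.14. In NeuN- nuclei 10 of the 14 were higher in cerebellum and 3 lower, with a median of 0.68 against 0.02 over all features, of which 40.5% were higher and 39% lower there, a split that moved with scaling as given above.

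**Figure D4:**
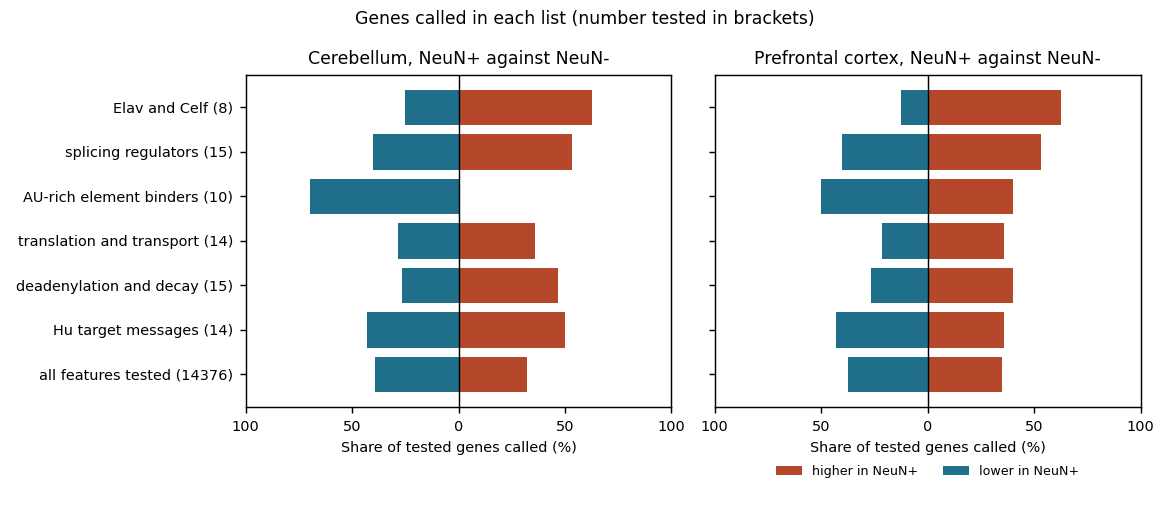
Share of tested genes called higher (right of 0) and lower (left of 0) in NeuN+ than in NeuN- nuclei (horizontal axes, %), in cerebellum and in prefrontal cortex, for the Elav and Celf genes, the 5 lists of related genes and all 14376 tested features. In cerebellum 0 of 10 AU-rich element binders and 5 of the 8 Elav and Celf genes were called higher in NeuN+ nuclei, against 32.4% of all features. In prefrontal cortex 4 of 10 and 5 of 8 were, against 35% of all features.

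The genes whose pattern was most like each member were sought among the other features, by the root mean square difference of log2 levels over the 8 libraries after each gene's own mean was removed. These libraries share 1 animal, and the likeness is a description. Closest to Elavl2 were Zfand4 (0.119), Necab3 (0.128) and Atp2b1 (0.157), of which Atp2b1, a plasma membrane calcium pump gene, averaged 54.7 scaled FPKM in cerebellar NeuN+, 33.4 in cerebellar NeuN-, 160 in prefrontal NeuN+ and 48.6 in prefrontal NeuN- nuclei. Closest to Elavl3 were Slco3a1 (0.0838), Def8 (0.0904) and Agap1 (0.0933), with Slco3a1, a transporter gene, at 26.9, 22.7, 6.92 and 7.46 in the same order of groups. Closest to Elavl4 were Ngfrap1 (0.0309), B4galt4 (0.0441) and Cul1 (0.0474), and closest to Elavl1 were Kansl2 (0.0567), Stk19 (0.0591) and Eif3a (0.0691).

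Among the Celf genes, Celf2 was followed most closely by Scn3a (0.0561), a voltage-gated sodium channel gene with means of 4.96 scaled FPKM in cerebellar NeuN+, 2.27 in cerebellar NeuN-, 12.2 in prefrontal NeuN+ and 3.07 in prefrontal NeuN- nuclei, and then by Zfp763 (0.0564) and Add2 (0.106). Among the closest to Celf1 were Gdap1 (0.121) and Zfp667 (0.128), and closest to Celf4 were Ogfod1 (0.0508), Fam20b (0.0587) and Prkci (0.0686). Celf6 was followed by Eme2 (0.0586), Phtf1 (0.073) and Snhg4 (0.0852), which stood lower in cerebellar than in prefrontal NeuN+ nuclei, with means of 12.5 against 36.7 scaled FPKM for Eme2. A smaller difference is reached more easily by a gene whose own levels vary little, so the distances of different members are not comparable.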

How the data were processed

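Nuclear RNA was measured in 8 libraries of the same animal. Frozen cerebellum was homogenized, per the labels' protocols, nuclei were pelleted through sucrose by ultracentrifugation, and NeuN-stained nuclei were sorted; for prefrontal cortex the handling is not stated in the labels. The deposited values are FPKM of genes with confidence limits, in the Cufflinks format per the file headers. Named in the submitters' processing notes are Trim Galore 0.3.7, Bowtie 1.1.1, TopHat2 2.1.1, Bismark, Cufflinks and mm9, without their roles; not given in the sources used here are the Cufflinks version, the annotation, strand use and the treatment of multiply mapped fragments. FPKM had been divided by length and depth before deposit. Fragment numbers under 20 implied by the confidence limits came within 0.05 of a whole number in 49.3% to 54.2% of cases, so no counts were recovered and no count test was run. Of all values, 14 had a status other than OK, none of them of a member.

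FPKM were scaled by median-of-ratios factors over the 9109 features that reached 1 FPKM in every library. Only features reaching 1 FPKM in 2 or more libraries entered the test. The model (limma 3.58.1, R 4.3.3) was fitted to log2(scaled FPKM + 1) with a mean for each group, a variance trend and 4 residual degrees of freedom. The fit was also run on simulated data with independent noise. That run cannot show how reliable the calls are for libraries that share 1 animal. The pseudocount of 1 understates changes of low genes. Tests were two-sided, with Benjamini-Hochberg adjustment over 14376 features within each of 5 comparisons. The members and lists were chosen with earlier results of these data known. Named from each list were, per comparison, the called gene with the largest positive and with the largest negative change, with a group mean of at least 5 scaled FPKM, and for each member the 3 features of most similar pattern; a few genes that the rule names are not reported here. Gene positions follow the tables (mm9, made 1-based), and promoter windows are on GRCm38.p6. Alternatives were other scalings, pseudocounts and filters, no variance trend, a replicate block and each library left out.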

Additional observations from a re-analysis of the deposited data

Results flagged for a closer look

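For 6 of the 8 tested members the change with the NeuN gate differed between the regions by a test of the difference itself (limma, cerebellum minus prefrontal cortex, on the log2 scale). The difference was -1.18 for Celf6, -0.96 for Celf2, -0.86 for Elavl2 and -0.58 for Celf1, which had the smaller or opposite NeuN+ change in cerebellum. It was 0.69 for Elavl4 and 0.60 for Celf4, which had the larger NeuN+ change in cerebellum. Each adjusted p stands beside its gene above, each rests on 2 libraries per group from 1 mouse, and 70.1% of all tested features were also called. Of the 15 general neuronal genes, 11 were called higher, 1 lower and 3 not called in this comparison, and their part in these differences was not tested.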

How the results depend on the processing

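Over the other scalings, pseudocounts, filters and models, 6 to 8 members were called for the cerebellar gate and 5 to 7 for the prefrontal gate. For the regions it was 4 to 6 in NeuN+ and 6 to 8 in NeuN- nuclei, and for the gate difference 5 to 7. Members tested were 8, but 6 with at least 5 FPKM in 2 libraries and 9 with no filter. As reported, 70.1% to 79.5% of all features were called, so such counts are usual, and the share of all features in each repeat is not given here. Of 670 repeated member changes, 621 kept direction and side of the threshold, 22 lost the call, 19 gained it and 8 turned sign. The sign turned for Celf6 in the cerebellar gate (0.18, quantile normalization), for Elavl1 (0.034), Elavl3 (0.0055) and Elavl4 (0.064) in the prefrontal gate with a common sum, and for Celf4 between NeuN+ nuclei of the regions with quantile normalization (0.019) and a common sum (0.031). With each library left out in turn, Elavl3 in the prefrontal gate ran from -0.29 (without prefrontal NeuN- replicate 2) to 0.0203 (without prefrontal NeuN- replicate 1), and Elavl1 between NeuN+ nuclei of the regions from -0.0496 (without prefrontal NeuN+ replicate 1) to 0.0985 (without prefrontal NeuN+ replicate 2). Of these, Celf6 and Elavl4 were called as reported; the cause was not tested. With 1 library left out, the lone library is assumed to vary like the other groups. Same-numbered libraries did not deviate together (correlations of -0.045 to 0.034 over 6 pairs), so the numbers are not taken to pair samples; with a replicate block 7, 6, 5, 8 and 7 members were called in the 5 comparisons. The unknown number of fragments limits Celf5, Celf6 and Elavl2 most, since their levels reach below 1 FPKM.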
